A study of Caenorhabditis elegans with 4 samples.

Results

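Small nucleolar RNA (snoRNA) genes that lie inside protein-coding genes were scored for binding of UNC-62 in Caenorhabditis elegans larvae. The members are the genes of snoRNA biotype in the Ensembl annotation that lie wholly within the body of a protein-coding gene on the same strand, which holds for 183 of the 346 nuclear snoRNA genes. They are called hosted snoRNA genes here, and the enclosing genes are called hosts. Of the other 163 snoRNA genes, 33 lie within a protein-coding gene on the opposite strand, 6 overlap one partly and 124 lie outside.

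UNC-62 is a homeodomain transcription factor of the MEIS family. Its binding was mapped by chromatin immunoprecipitation and sequencing (ChIP-seq) in 4 biological replicates, which form 1 group. Every replicate was made from whole L3 larvae of strain OP600, pooled males and females, which carries the mutation unc119(ed3) and the integrated transgene wgIs600. The transgene holds unc-62 fused to the tags TY1, EGFP and FLAG, together with an unc119 rescue gene. The tagged UNC-62 thus comes from an added copy, and whole larvae mix all tissues. The labels name the target of the antibody as unc-62 in one field and eGFP in another. Replicates 1 and 2 carry a fragment size range and a stock center as source (label set A), and replicates 3 and 4 carry microtip sonication and the producing laboratory as source (label set B). The authors deposited 1037 optimal peaks, a merged list of 18556 regions and 1 list per replicate of 30000, 30000, 29970 and 28043 nuclear regions. The optimal peaks are the 1037 merged regions of highest signal. The replicate lists hold peaks and background, so the 1037 regions of highest signal in each replicate were also scored alone. Read counts are absent from the lists and the depth of sequencing is therefore unknown.

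snoRNAs guide chemical modification of ribosomal RNA. Box C/D snoRNAs direct 2′-O-methylation and H/ACA snoRNAs direct pseudouridylation, each within a ribonucleoprotein particle. Many animal snoRNAs are released from the introns of host transcripts, while others are transcribed from promoters of their own, and in nematodes an intronic position does not exclude such a promoter.

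The 4 hosted snoRNA genes with the strongest optimal peaks share letters upstream of the gene. The sequences below show 5 hosted snoRNA genes with the strongest optimal peaks, then 2 other snoRNA genes with the same letters and a merged region. Each gives 100 bases upstream and then the whole gene, 5′ to 3′ on the strand of the gene, from the RefSeq genome sequence of WBcel235. Capitals mark GCGAAAC and TGTC in all sequences but that of M106.6, where they mark a match to box B, the inner promoter element of tRNA genes. The stretches are chrV:8500479-8500645 for ZK994.7, chrII:11224082-11224258 for T06D8.11, chrV:12491180-12491346 for W04D2.7, chrV:8349008-8349187 for C08D8.3 and chrII:10840217-10840391 for M106.6. They are chrII:8091609-8091782 for K02C4.7 and chrIII:9717280-9717458 for C07A9.14. All are on the plus strand.
ZK994.7: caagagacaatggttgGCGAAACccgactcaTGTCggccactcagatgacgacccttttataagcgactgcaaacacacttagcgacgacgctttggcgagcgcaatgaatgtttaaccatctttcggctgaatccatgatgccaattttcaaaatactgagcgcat
T06D8.11: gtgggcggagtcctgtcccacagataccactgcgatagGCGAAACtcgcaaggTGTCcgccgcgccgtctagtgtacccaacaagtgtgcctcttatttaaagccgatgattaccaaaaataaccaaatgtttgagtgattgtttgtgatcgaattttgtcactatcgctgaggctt
W04D2.7: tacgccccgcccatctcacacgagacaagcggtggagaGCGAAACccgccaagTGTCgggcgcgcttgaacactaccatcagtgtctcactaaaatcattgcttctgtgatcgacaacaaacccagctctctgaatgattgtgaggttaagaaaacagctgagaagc
C08D8.3: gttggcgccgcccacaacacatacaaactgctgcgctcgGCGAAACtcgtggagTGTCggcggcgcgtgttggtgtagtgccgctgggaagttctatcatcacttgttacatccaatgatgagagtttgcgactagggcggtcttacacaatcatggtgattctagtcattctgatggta
M106.6: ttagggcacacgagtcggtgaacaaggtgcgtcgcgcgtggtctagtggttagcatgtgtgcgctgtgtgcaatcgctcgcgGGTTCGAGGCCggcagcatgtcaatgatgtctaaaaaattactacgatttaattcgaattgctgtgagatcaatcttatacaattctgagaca
K02C4.7: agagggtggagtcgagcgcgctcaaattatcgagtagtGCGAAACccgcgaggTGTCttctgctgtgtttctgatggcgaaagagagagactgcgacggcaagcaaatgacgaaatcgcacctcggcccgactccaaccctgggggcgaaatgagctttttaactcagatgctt
C07A9.14: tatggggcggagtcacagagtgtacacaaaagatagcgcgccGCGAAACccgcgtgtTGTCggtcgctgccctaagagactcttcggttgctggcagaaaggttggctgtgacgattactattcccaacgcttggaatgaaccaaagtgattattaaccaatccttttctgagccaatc

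GCGAAAC followed after 8 bases by TGTC began between 84 and 58 bases upstream of the annotated 5′ end in all 9 snoRNA genes that had the pair within 150 bases upstream. A gap of 4 to 14 bases was allowed, and in all 9 genes it was 8. These 9 include the 4 hosted snoRNA genes from which the letters were read. The letters were picked after reading the sequences of the strongest members, so those genes do not support the choice. On the strand of the gene, the pair was found in 5 of 183 hosted snoRNA genes and in 4 of the other 163. Without the genes from which the letters were read, the hosted count was 1 of 179 (0.559%). The pair was found in 4 of 19973 windows of 150 bases upstream of protein-coding genes (0.02%). On the opposite strand it was found in 0 snoRNA genes of either set.

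The pair and UNC-62 summits coincided at 4 members, ZK994.7, T06D8.11, W04D2.7 and C08D8.3, all with an optimal peak and a place among the 1037 highest regions of at least 3 replicates. The 5th hosted gene with the pair, Y37E3.20 on chromosome I in pcyt-2.1, had a summit in all 4 whole replicate lists, but in neither the merged list nor any replicate's 1037 highest. Of the 4 other snoRNA genes with the pair, K02C4.7 and C07A9.14 had a merged summit and were in 3 whole replicate lists. Of the 2 remaining genes, both on chromosome IV, 1 had a summit in 0 whole replicate lists and 1 in 1. The genes used to pick the letters are all hosted genes with the pair and an optimal summit, so Y37E3.20 could not have one. None of the 4 other snoRNA genes with the pair had an optimal summit.

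The nuclear genome holds 424 matches to the pair on either strand, of which 9 are those upstream of snoRNA genes. Of the remaining 415 matches, 2 (0.482%) had an optimal summit within 100 bp and 23 (5.54%) a merged one. The whole nuclear genome holds 0.0103 optimal and 0.185 merged summits per kb, and a share at random positions was not computed. The matches upstream of snoRNA genes are not set against the remaining ones, since the letters were read from 4 of those genes.

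The match to box B was found upstream of 5 of 183 hosted snoRNA genes, 9 of the other 163 and 14 of 19973 protein-coding genes (0.0701%). M106.6 and C51F7.3 had an optimal summit and the match, T08B2.13 had a merged summit only, and T24H7.6 and F46F11.12 had neither. In C51F7.3 the match lies inside the neighbouring snoRNA gene C51F7.4. No hosted snoRNA gene had an annotated tRNA, snRNA or rRNA gene within 200 bp, with 0 members for each biotype. This element was also looked for after the sequences had been read.

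The 183 members lie in 159 host genes, of which 23 hold at least 2 and 1 holds 4. Members in the same host or under the same peak are not independent, and genes are not replicates. A member lies in an intron of every host transcript that spans it in 143 cases, overlaps an exon of every such transcript in 33, and does either by transcript in 7. Of the 150 members with an intron, 42 lie in a first intron and 108 in a later one, and the median intron is 374.5 bp long. Hosted snoRNA genes have a median length of 128 bp (54 to 325), against 134 bp (62 to 344) for the others. The H/ACA letters, ACA starting within the last 8 bases, were found in 61 hosted snoRNA genes and 30 others. Both box C/D letters, TGATGA in the first 15 bases and CTGA near the end, were found in 6 and 7. The annotation gives no snoRNA class, and most genes (116 hosted and 126 others) had neither set of letters, so these letters do not assign a class.

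An UNC-62 summit was found near 11 of 183 hosted snoRNA genes in the optimal list, which is 6.01% (exact 95% interval 3.04 to 10.5). Among the other snoRNA genes it was 15 of 163, or 9.20% (5.24 to 14.7). A summit counts here when it lies within 200 bp of the gene body, and intervals cover counting of genes only. The same rule called 1.8% of all 46890 nuclear genes, which differ in length. The share of hosted snoRNA genes was above that background, and the intervals of hosted and other genes overlap.

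In the merged list 41 of 183 hosted snoRNA genes had a summit, 22.4% (16.6 to 29.1), against 75 of the other 163, 46.0% (38.2 to 54.0). The background over all genes was 23.6%. The merged share of hosted snoRNA genes was near this background, and that of the other snoRNA genes above it. All nuclear genes include 2872 piRNA genes within protein-coding genes on the same strand and 12491 others, with merged shares of 6.55% and 6.48%. The piRNA genes lower the background in this and the other lists. Without them it would be higher, so the words near and above hold only for the background that includes them. A background without them was not computed.

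In the whole replicate lists the hosted share was 27.3%, 26.8%, 33.9% and 25.1% in replicates 1 to 4, against 46.6%, 42.9%, 41.1% and 44.8% for the other snoRNA genes. The background was 33.3%, 32.9%, 33.2% and 32.4%. Every hosted value lay below every value of the other snoRNA genes. In 3 of 4 replicates the hosted value was also below this background, which includes the piRNA genes. The mean was 28.3% ± 3.85 for hosted and 43.9% ± 2.38 for other snoRNA genes (SD, n = 4), a difference of -15.6 ± 5.79 percentage points, lower in 4 of 4 replicates. It was -17.7 points in label set A and -13.4 in label set B.

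Among the 1037 highest regions of each replicate, 8, 6, 12 and 9 hosted snoRNA genes had a summit, or 4.37%, 3.28%, 6.56% and 4.92%. For the other snoRNA genes the shares were 8.59%, 7.98%, 11.04% and 9.20%. The background was 1.68%, 1.75%, 1.81% and 1.91%, so both sets were above it in every replicate. The hosted mean was 4.78% ± 1.37 and the other mean 9.20% ± 1.33 (SD, n = 4), and the difference of -4.42 ± 0.216 points had the same sign in 4 of 4 replicates. It was -4.46 points in label set A and -4.38 in label set B. The SD describes the spread between replicates over the same genes and leaves out the counting of genes. Exact intervals of the hosted and other shares overlapped in 4 of 4 replicates. In replicate 1 they were 1.91 to 8.43% and 4.78 to 13.99%. With 1 group and gene counts, no p-value is given for these differences.

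**Figure D1:**
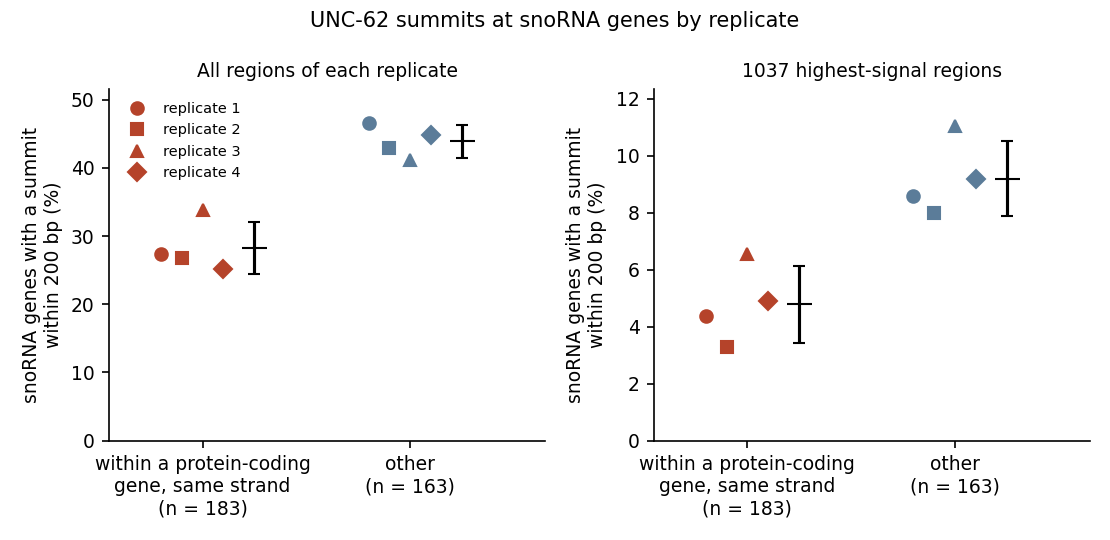
Share of snoRNA genes with a summit within 200 bp (%, y axis) in each replicate, for hosted snoRNA genes (left) and other snoRNA genes (right), with mean ± SD in black. The hosted values run from 25.1 to 33.9% and the others from 41.1 to 46.6% in whole lists, and from 3.28 to 6.56% against 7.98 to 11.04% in the 1037 highest regions.

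The difference was larger among genes near a protein-coding start, in 4 of 4 replicates for whole lists and for the 1037 highest regions. A start of any protein-coding transcript, on either strand, lies within 1000 bp of 89 hosted snoRNA genes (48.6%) and of 72 others (44.2%). Near such a start, 14 of 89 hosted snoRNA genes (15.7%) had a merged summit, against 41 of 72 others (56.9%). Away from one the counts were 27 of 94 hosted (28.7%) and 34 of 91 others (37.4%). In the optimal list the counts near a start were 3 of 89 hosted and 8 of 72 others.

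Away from starts the optimal counts were 8 of 94 hosted (8.51%) and 7 of 91 others (7.69%). The 1037 highest regions gave 6.38% ± 1.94 for hosted and 6.32% ± 2.27 for other snoRNA genes away from starts (SD, n = 4), a difference smaller than the spread between replicates. Near a start they gave 3.09% ± 1.92 for hosted and 12.8% ± 3.08 for others. In whole lists away from starts the shares were 31.4% ± 3.93 for hosted and 39.8% ± 4.24 for others.

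**Figure D2:**
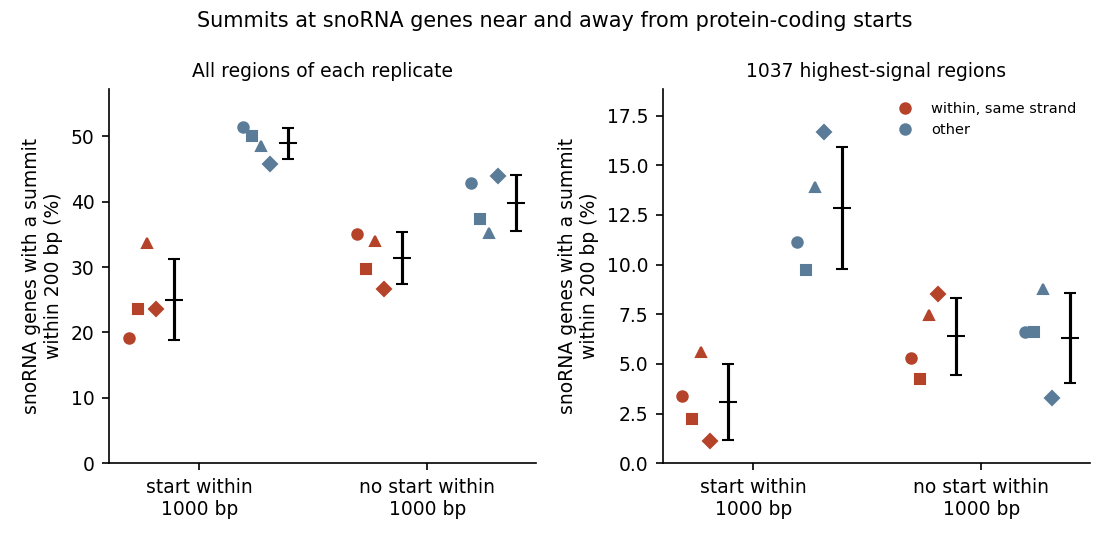
Share of snoRNA genes with a summit within 200 bp (%, y axis) for hosted (red, left of each pair) and other snoRNA genes (blue), near and away from protein-coding starts. Symbols are the 4 replicates and black bars the mean ± SD. In the 1037 highest regions the means are 3.09% and 12.8% near a start and 6.38% and 6.32% away from one.

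Within the hosted genes, summits were more frequent in later introns. Members in a later intron had an optimal summit in 10 of 108 cases and a merged one in 31 of 108, against 0 of 42 and 4 of 42 in a first intron. The upper end of the exact interval at 0 of 42 is 8.41%. Later introns gave 7.18% ± 1.39 and first introns 1.19% ± 2.38 in the 1037 highest regions (SD, n = 4), higher in later introns in 4 of 4 replicates. In whole lists the shares were 31.7% ± 5.83 in later introns and 22.0% ± 8.99 in first introns, and in replicate 4 the order was the opposite, at 23.1% and 28.6%. Members overlapping an exon in any transcript had an optimal summit in 2 of 40 cases and a merged one in 8 of 40.

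Hosts of the ribosomal protein families rpl and rps hold 19 members in 13 genes. Of these 19, 0 had an optimal summit, 1 had a merged one and 0 were in the 1037 highest regions of any replicate. The count of 0 of 19 has an upper exact limit of 17.6%, so a share like that of all members was not excluded. In whole lists 14.5% ± 2.63 of them had a summit, against 29.9% ± 4.25 of members in other hosts, lower in 4 of 4 replicates. The 3 snoRNA genes of rpl-6, which encodes a large-subunit protein, had no merged summit. Nor had 3 of the 4 in nol-56, whose product is the NOP56 protein of box C/D particles. The fourth, K07C5.12, had a merged signal of 15.65 at rank 7167.

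Chromosome V held 6 of the 11 members with an optimal summit, from 36 hosted snoRNA genes (16.7%), and 15 with a merged summit (41.7%). The other snoRNA genes of chromosome V gave 4 and 11 of 19. The 6 members include C51F7.3 and C51F7.4, which share 1 peak. The share of all genes on chromosome V with a summit was not computed. On the other chromosomes the optimal counts of hosted snoRNA genes were 0 of 36 on I, 2 of 35 on II, 1 of 38 on III, 2 of 28 on IV and 0 of 10 on X. In the 1037 highest regions the share of hosted snoRNA genes on chromosome V was 11.1%, 11.1%, 16.7% and 11.1%, the highest chromosome in each replicate. The merged share of hosted snoRNA genes was below that of the others on every chromosome but X, where it was 3 of 10 against 5 of 23.

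Other small RNA genes lying within protein-coding genes on the same strand give a scale. In the optimal list, 5 of 167 hosted tRNA genes (2.99%), 2 of 37 snRNA genes (5.41%), 0 of 74 miRNA genes and 28 of 1109 ncRNA genes (2.52%) had a summit. The merged shares were 37.1%, 21.6%, 12.2% and 20.9% in the same order. The optimal share of hosted snoRNA genes, 6.01%, had an interval that overlapped those of these 4 classes. Hosted piRNA genes were lower, with an optimal summit at 2 of 2872 (0.0696%, interval 0.00843 to 0.251) and a merged share of 6.55%.

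ZK994.7 (WBGene00044958; V, 8500579 to 8500645) had the strongest optimal peak of the members. It lies in an intron of pxn-1, which encodes a peroxidasin of the extracellular matrix. The peak had a signal of 90.2 and rank 99, with its summit 40 bp upstream of the gene. Its ranks in replicates 1 to 4 were 273, 171, 117 and 64, the only member in the 1037 highest regions of all 4 replicates. The replicate summits lay between 53 bp upstream and 6 bp inside the gene.

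T06D8.11 (WBGene00014506; II, 11224182 to 11224258), in plpr-1, had a signal of 70.2, rank 212 and a summit 27 bp upstream. Its ranks were 445, 4550, 132 and 54, with replicate 2 far below the other three. W04D2.7 (WBGene00014541; V, 12491280 to 12491346) lies in inx-11, an innexin gap junction gene, and had a signal of 49.8 with the summit 57 bp upstream. Its ranks were 909, 376, 12761 and 348, with replicate 3 low. C08D8.3 (WBGene00044957; V, 8349108 to 8349187), in C08D8.1, had a signal of 48.3 and its summit at the first base of the gene. Its ranks were 817, 2097, 266 and 801, so replicate 2 again was outside the 1037 highest.

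M106.6 (WBGene00014447; II, 10840317 to 10840391) lies in mix-1, which encodes an SMC subunit of condensin. Its peak had a signal of 46.6, with the summit 71 bp upstream, and ranks of 1432, 19247, 557 and 889. C27H6.5 (WBGene00044974; V, 9970204 to 9970271) lies in unc-41, the stonin gene of synaptic vesicle recycling. It had a signal of 40.2, a summit 51 bp upstream and ranks of 2415, 691, 9730 and 13701. It was thus high in replicate 2 alone.

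C51F7.3 and C51F7.4 (WBGene00014290 and WBGene00219860) stand next to each other in frm-7, a FERM domain gene, and share 1 peak of signal 39.4. Its summit lies 77 bp upstream of C51F7.3 and 32 bp inside C51F7.4. The ranks were 2101, 4601 and 208 in replicates 1 to 3 for both. In replicate 4 the nearest summit, at rank 7601, lay 114 bp from C51F7.4 and 223 bp from C51F7.3, which is beyond the 200 bp limit.

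The remaining 3 of the 11 lie within 1000 bp of a protein-coding start. C02F5.15 (WBGene00219795; III, 8227863 to 8228045) lies in rfs-1, a RAD-51 paralog gene, and fbxl-1, and had a signal of 45.9 with the summit 176 bp upstream. Its ranks were 804, 342 and 609 in replicates 1 to 3. D1046.6 (WBGene00045136; IV, 8927265 to 8927393), in cfim-2, had a signal of 42.3 and ranks of 1636, 1561 and 384. The gene smy-2 (WBGene00045109; IV, 9511395 to 9511466), in C33A12.3, had a signal of 41.3 and ranks of 634, 4796 and 1206. In replicate 4 none of the 3 had a summit within 200 bp, although the nearest lay only 218 bp from C02F5.15 and 220 bp from D1046.6, against 2457 bp from smy-2. Proximity to a start and binding at the snoRNA gene cannot be told apart at these members.

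**Figure D3:**
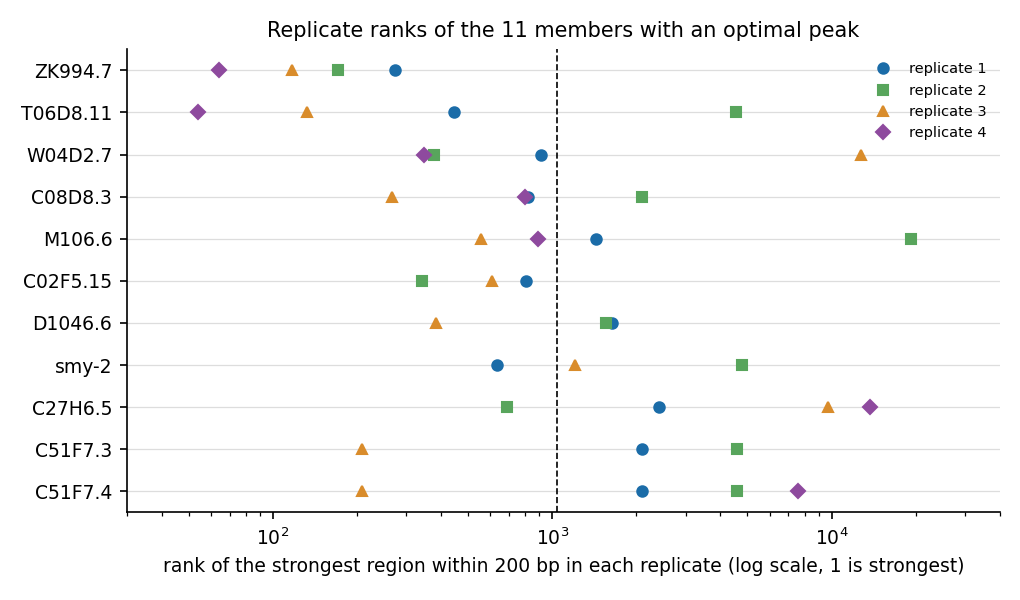
Rank of the strongest region within 200 bp (x axis, log scale, 1 is strongest) in each replicate for the 11 members with an optimal peak, ordered by optimal signal from ZK994.7 at the top. The dashed line is rank 1037, and a missing symbol means that the replicate list had no summit within 200 bp. ZK994.7 alone has all 4 symbols left of the line.

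Replicate support was uneven. Of the 11 members, 5 were in the 1037 highest regions of 1 replicate, 1 in 2, 4 in 3 and 1 in all 4. In the whole lists, 7 had a summit in all 4 replicates and 4 in 3. Of all 183 members, 160 were in the 1037 highest regions of 0 replicates. The optimal list was derived from these replicates, so this is a description of it.

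The strongest merged regions below the optimal threshold were near C16D9.11 (signal 33.5), F39B2.14 (32.2), T08B2.13 (31.1), Y43F8C.22 (31.0) and C05D2.15 (30.6). Just beyond 200 bp, Y32G9A.15, F54E7.10 and K02F3.15 had an optimal summit at 209, 259 and 247 bp. The lowest optimal signal is 37.27 and the median 50.47, so 9 of the 11 members had peaks weaker than the median optimal peak. Among the other snoRNA genes the strongest optimal peaks were near M7.15 (91.8) and ZK20.9 (70.8), close to the 2 highest members.

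In the optimal and merged lists, summits near hosted snoRNA genes gathered just upstream of the 5′ end. The strongest summit was counted for each gene, so a summit shared by 2 genes counts for both. In the optimal list it lay upstream for 8 of 11 genes, in the gene for 3 and downstream for 0. It lay within 100 bp upstream for 7, and the median offset was -51 bp. The summit shared by C51F7.3 and C51F7.4 counts as upstream of the former and inside the latter. In the merged list 27 lay upstream, 10 in the gene and 4 downstream (median -32 bp), against 44, 22 and 9 (median -21 bp) for the other snoRNA genes. The 100 bp upstream held 20 merged summits of hosted snoRNA genes, or 1.09 per kb per gene, against 31 or 1.90 per kb per gene for the others. The upstream share of hosted snoRNA genes in the 1037 highest regions was 87.5%, 83.3%, 75% and 33.3%, and replicate 4 thus differed from the other three. In whole lists it was 51.8% ± 9.60 for hosted and 51.5% ± 8.72 for others (SD, n = 4), a difference smaller than the spread. The median offset of hosted snoRNA genes in whole lists was -31, 15, 8.5 and 5.5 bp in replicates 1 to 4. Their 100 bp upstream held 1.31, 0.82, 1.09 and 0.77 summits per kb per gene. Bins farther upstream came close to this in replicates 2 and 4, at up to 0.77 and 0.71. In replicate 3 the bin from 600 to 699 bp downstream of the 5′ end held 0.93.

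**Figure D4:**
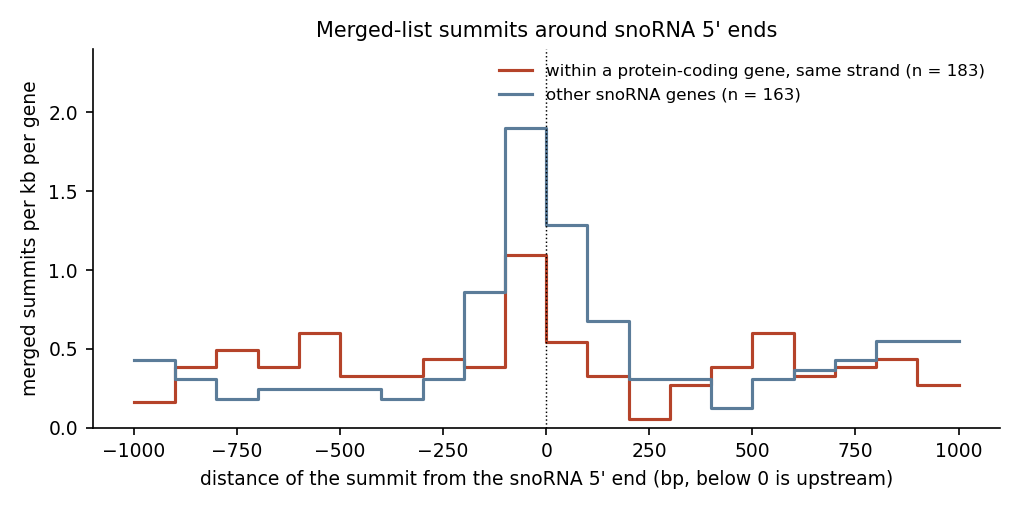
Merged summits per kb per gene (y axis) in bins of 100 bp by distance from the snoRNA 5′ end (x axis, bp, upstream below 0), for hosted (red) and other snoRNA genes (blue). Both peak in the 100 bp upstream, at 1.09 for hosted and 1.90 for others.

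Within the same hosts, summits were denser near the snoRNA genes than elsewhere. In the optimal list 10 summits fell in the 92.2 kb within 200 bp of members and 28 in the other 1412 kb of host bodies, or 0.108 against 0.0198 per kb, a ratio of 5.47. The merged list gave 0.466 against 0.254 per kb, a ratio of 1.83. In whole replicate lists the ratio was 1.53, 1.28, 2.01 and 1.57 (mean 1.6 ± 0.304, n = 4). In the 1037 highest regions it was 3.83, 2.36, 7.02 and 4.31 (mean 4.38 ± 1.95), above 1 in 4 of 4 replicates. Counted in host introns only, which leaves out exons, the means were 1.69 ± 0.171 and 4.93 ± 2.50.

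**Figure D5:**
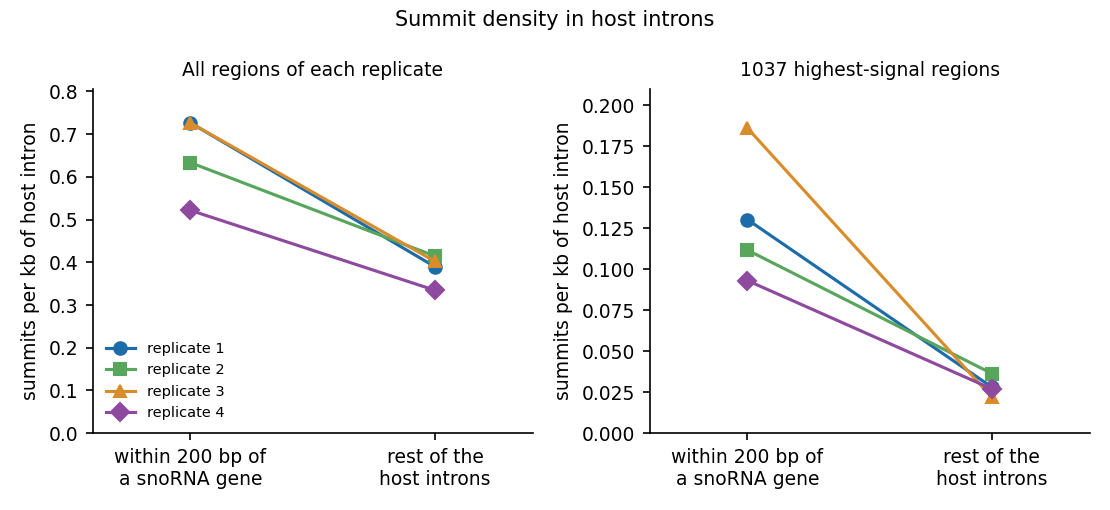
Summits per kb of host intron (y axis) within 200 bp of a hosted snoRNA gene (left) and in the rest of the host introns (right), with a line for each replicate. All 4 lines are higher near the snoRNA gene, for whole lists and for the 1037 highest regions.

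Starts of host genes had summits more often than starts of genes that host no snoRNA gene. A gene with more transcripts has more starts, and this was not adjusted for. From 1000 bp upstream to 200 bp downstream of a start, 27 of 159 hosts had an optimal summit, 17.0% (11.5 to 23.7), against 498 of 19814 protein-coding genes that host no snoRNA gene (2.51%). In the 1037 highest regions the shares were 14.2% ± 2.84 for hosts and 2.29% ± 0.222 for genes that host none (SD, n = 4), higher for hosts in 4 of 4 replicates. In the optimal list, rpl and rps hosts and non-hosts had the same share, 4 of 13 and 20 of 65 (both 30.8%). Hosts of other families gave 23 of 146 there (15.8%). In the 1037 highest regions rpl and rps hosts gave 25% ± 11.5 and non-hosts 20.8% ± 7.69 (SD, n = 4). In the merged list they gave 76.9% and 84.6%.

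The merged share at the snoRNA gene was alike with and without a merged summit at the host start. Members whose host start had a merged summit had one themselves in 25 of 111 cases (22.5%), against 16 of 72 (22.2%) where the host start had none. In the optimal list the counts were 4 of 35 (11.4%) and 7 of 148 (4.73%). Of the 10 optimal summits near members, 3 lay in the window of a protein-coding start, as did 13 of the 44 merged ones. Those summits count toward both the member and a start.

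Letters known from MEIS-family, PBX-Hox and other binding sites were counted at summits near hosted snoRNA genes and at all summits of the same list. Both strands of the 50 bp to either side of a summit were searched. TGACAG, the MEIS core, was found at 1 of 10 optimal summits near members, against 10.1% of all optimal summits. TGATTGAT was found at 0 of 10 (3.57% of all), TGATNNAT at 1 of 10 (13.1%), GAGAGAGA at 0 of 10 (9.55%) and CACGTG at 0 of 10 (4.34%). TGATNNAT includes TGATTGAT. The optimal summit with both TGACAG and TGATNNAT is that of D1046.6. At merged summits near members TGACAG was found at 1 of 44, against 5.39% of all merged summits, and TGATNNAT at 4 of 44, against 8.95%. With 10 summits, 0 allows a share of up to 30.8%, so fewer matches than in the whole list were not detectable.

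Members with a merged summit also differed from those without in base composition. The 100 bases upstream had a median GC of 54% in hosted snoRNA genes with a merged summit and 41% in those without. For the other snoRNA genes the medians were 51% and 42.5%. The 101 bases around a summit had a median GC of 54.95% at the 10 optimal summits near members, against 47.5% at all optimal summits. They had 47.5% at the 44 merged summits near members, against 36.6% at all merged summits. The part of base composition in these results was not tested.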

How the data were processed

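The authors deposited, per the notes with the files, lists of peaks and background on ce11 for 4 replicates and their merge, and optimal peaks thresholded by reproducibility. Each region has the authors' signal value, a deposited −log10 q-value and a summit offset. The aligner and peak caller: not given in the sources used here. The control, reads and ce10 lists were not analysed here. Signal scales differ between lists, so replicates were compared by rank.

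Genes came from Ensembl release 115 on WBcel235, with 1-based coordinates. 30 mitochondrial regions in each of replicates 3 and 4 were left out. Replicate values are mean ± SD, and intervals are exact Clopper-Pearson at 95% (Python 3.11.15, scipy 1.17.1). Counting was checked on planted summits. Named genes are all members with an optimal summit, the 5 with the highest merged signal below them, members 201 to 300 bp from an optimal summit, and the 5 strongest other snoRNA genes, of which 2 are given. Genes with the shared upstream letters were named after their values were seen. Members and lists were chosen with earlier results of these data known. No deposited column lacked a sample. Alternatives covered distance, region overlap, clusters, starts, host strand, list length, label set and each replicate left out. Density alternatives were added after seeing the data.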

Additional observations from a re-analysis of the deposited data

Results flagged for a closer look

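In 19 groups of 4 replicate values (shares, their differences, density ratios and the ranks of named genes) a replicate far from the other three was looked for. In 4 groups, all of them ranks given as a percent of the replicate's list, 1 replicate stood apart by Dixon's 95% critical value, a limit that chance passes in about 1 in 20 groups of normally spread values. The named genes were chosen by optimal or merged signal. T06D8.11 was at 15.2% in replicate 2, against 0.193 to 1.48% in the others. W04D2.7 was at 42.6% in replicate 3, against 1.24 to 3.03%. M106.6 was at 64.2% in replicate 2, against 1.86 to 4.77%. F39B2.14 was at 68.2% in replicate 2, against 3.13 to 12.5%. Of the 4 values, 3 came from replicate 2. Genes without a summit within 200 bp in a replicate gave no group of 4 ranks and were left out. Among the members with an optimal summit these were C02F5.15, D1046.6, smy-2 and C51F7.3, all for lack of a summit in replicate 4.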

How the results depend on the processing

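The hosted minus other difference was below 0 in 11 of 12 settings for the optimal list, 9 of 9 for the merged list, 14 of 14 for whole replicate lists and 15 of 16 for the 1037 highest regions, each count including the setting reported. Both exceptions left out genes within 1000 bp of a protein-coding start, where it was 0.818 points (optimal) and 0.0643 points (1037 highest). That setting also gave -8.64 points (merged) and -8.45 points (whole lists), and a hosted share of 6.38% in the 1037 highest regions. The difference in whole lists was -9.41 points at 500 bp. In the 1037 highest regions it was -3.4 points at 100 bp, -3.77 from the 5′ end, -4.17 with 1 gene per cluster, -4.1 with a host on either strand, -2.33 with 518 regions and -7.61 with 2074. Hosted shares at 500 bp were 39.3% (merged), 48% (whole lists) and 6.42% (1037 highest). In whole lists they were 20.4% at 100 bp and 24.2% from the 5′ end, and with 518 regions 2.73%. Optimal peaks that were also among the 1037 highest regions of every one of 3 replicates, leaving out each in turn, were near 0.546 to 1.64% of members, against 6.01% in the full list. The cause was not tested, except that wider windows, shorter lists and stricter support change counts by construction. The density ratio in the 1037 highest regions was 4.38 as reported, 5.56 at 100 bp and 2.75 at 500 bp, each within the replicate SD of 1.95 of the first. Differences between hosted and other genes were taken within each replicate. With 1 group there were no sample groups to pair. Depth is unknown, and 10 optimal summits near members limit every share built on them.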

Other observations

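TGTCGG, the letters at the 3′ part of the shared pair in 3 of the 4 members that carry it with an optimal peak, was searched alone in the 150 bases upstream, after the sequences had been read. Left out here are the 4 hosted snoRNA genes from which the letters were read, all with a merged summit. On the strand of the gene it was then found in 4 of 37 hosted snoRNA genes with a merged summit (10.8%) and 6 of 142 without (4.23%). For the other snoRNA genes it was 15 of 75 (20%) and 10 of 88 (11.4%), and for protein-coding genes 1.22%. On the opposite strand it was found in 2 of 37 and 3 of 142 hosted snoRNA genes. Both classes are GC-rich upstream where a merged summit lies near, and the part of base composition was not tested.

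Hosted snoRNA genes with the H/ACA letters had a summit in the 1037 highest regions in 2.05% ± 1.57 of cases, against 6.03% ± 1.72 of those with neither set of letters (SD, n = 4). Among the other snoRNA genes with the H/ACA letters the share was 10% ± 2.72. For hosted snoRNA genes the merged list gave 12 of 61 with the H/ACA letters (19.7%) and 26 of 116 with neither set (22.4%). The optimal list gave 2 of 61 and 8 of 116, and the exact intervals overlapped in both lists. These letters are a loose mark of class.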
